A study of Mus musculus with 10 samples.

Results

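The genes described here are 39 components of fibroblast (FGF), epidermal (EGF), insulin-like (IGF) and hepatocyte (HGF) growth factor signalling: ligands, receptors, IGF binding proteins and genes that respond to the receptors. These genes were chosen by name, with earlier results of these data known. Of these, 36 were measured by a probe set that the array's annotation assigns to exactly 1 gene symbol. Areg, Nrg1 and Etv1 were not analysed here. They stood among 12393 genes with such a probe set and 22626 probe sets in all. Where a gene had several probe sets, the 1 with the highest mean over all arrays was used and the others served as a check.

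Gene expression was measured in whole lungs of male C57BL/6 mice aged 6 to 8 weeks, with 5 animals in normoxia and 5 in intermittent hypoxia, in which the oxygen in the inspired air falls and recovers repeatedly. Each lung had its own Affymetrix Mouse Genome 430A 2.0 array. No genotype, transgene or agent beyond these is given by the labels, and the labels state neither oxygen levels nor the length of exposure. The series' title concerns alveolar surface area in adult mice after chronic intermittent hypoxia, and the question here is how lung transcripts of exposed mice compare with those of controls.

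Growth factors of these families bind receptor tyrosine kinases at the cell surface and switch on the RAS, MAPK and PI3K relays. Heparan sulfate chains help FGFs, HGF and heparin-binding EGF-like growth factor to reach their receptors, and IGF binding proteins hold IGFs outside the cell and set how much reaches the IGF receptor. In the lung, FGF ligands of the mesenchyme act on epithelial Fgfr2 during branching and in the upkeep of alveolar type 2 cells. The cell answers with transcripts that report on the relay and restrain it: Sprouty proteins (Spry), the MAPK phosphatase Dusp6 and the ETS transcription factors Etv1, Etv4 and Etv5.

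The values were log2 probe set levels, and array medians lay between 7.69 and 7.73. Normoxia arrays 2, 3 and 4 stood apart in the spread of their values: their standard deviation over all probe sets was 1.89 to 1.93, whereas that of the remaining 7 arrays was 1.99 to 2.05. The results below are therefore also given without these 3 arrays. The tissue label was checked on the surfactant protein gene Sftpc, which averaged 14.60 ± 0.07 with normoxia and 14.59 ± 0.08 after intermittent hypoxia (mean ± SD, 5 arrays each), near the highest value of the table (14.94). As whole lungs were measured, more cells of a type and more RNA per cell cannot be told apart. Unless another setting is named, adjusted p values are limma's, corrected by Benjamini and Hochberg's method for the 22626 probe sets tested. Values given for SAM are its q values, and those for the mean of probe sets come from a limma fit of 12393 genes. A gene is said to have risen or fallen at an adjusted p below 0.05, with fold changes on the log2 scale.

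Of the 36 measured genes 9 rose after intermittent hypoxia (25%), and none fell. They were the FGF ligand gene Fgf1 and the receptor gene Fgfr2, the binding protein genes Igfbp2, Igfbp3 and Igfbp7, the EGF family ligand gene Hbegf, and the feedback and target genes Spry1, Etv5 and Dusp6. Among all genes counted the same way, 8.93% were higher and 3.6% lower, and among all probe sets 8.5% and 3.43%. As the 36 genes were chosen with earlier results of these data known, this comparison is not independent of that choice. Without normoxia array 2, 3 or 4 or hypoxia array 1, 2 or 3 the count was 3 or 4. In 6 of the 36 genes every hypoxia array lay above every normoxia array, against 5.76% of all genes. In none of them did every hypoxia array lie below, against 2.85%. SAM, the permutation method that the design text names, gave 0 lower calls at a q below 0.05 and was not counted at an unadjusted level. At an unadjusted p below 0.05, 11 of the 36 genes were higher and 0 lower in the limma fit. At that unadjusted level the split was 8 higher and 4 lower after quantile normalization and 11 and 3 without normoxia array 1. The share of all genes at that level was not counted, so these splits have no background to stand beside. The median log2 fold change was 0.07 over the 36 genes and 0.01 over all genes. A filter on low levels kept 11313 brighter probe sets, with 24 of the 36 genes and all 9 that rose. Among those probe sets the median was 0.10, and 2430 passed, 79.75% of them higher. The 36 genes were not compared with genes of like level, so neither the shares nor the medians show a shift particular to them. For 25 of the 27 genes that did not pass, the 95% interval of the log2 fold change stayed within 0.5 in either direction, and for 15 within 0.3. These include genes of low level, such as Ereg, Fgf2 and Ptn (normoxia means 4.55, 4.67 and 5.62). For such genes a narrow interval does not show that the transcript was stable.

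**Figure D1:**
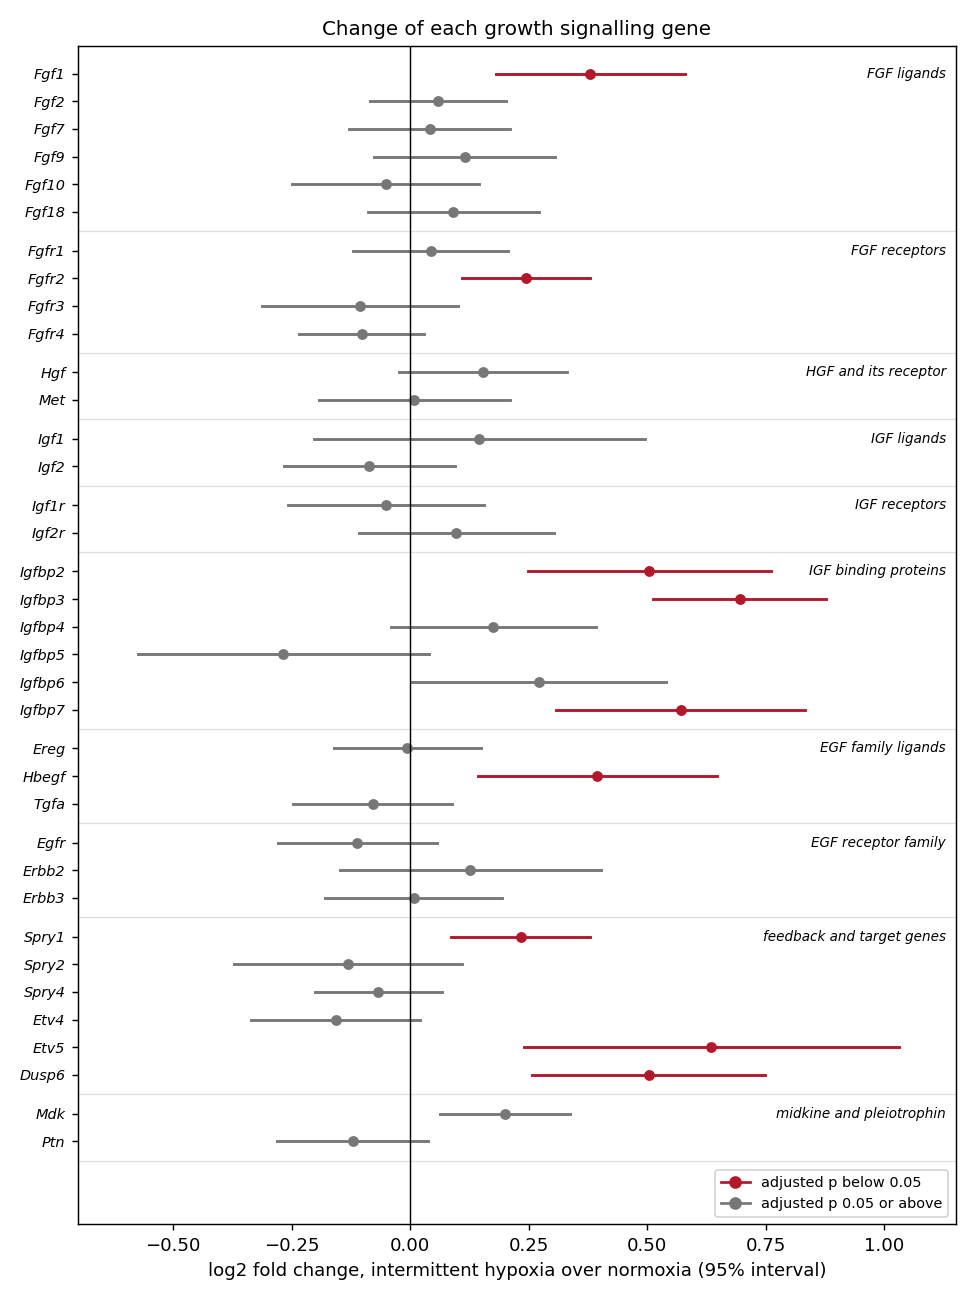
Log2 fold change of each of the 36 measured genes, intermittent hypoxia over normoxia, by family. Points are limma estimates and lines their 95% intervals (n = 5 arrays per group). Red marks the 9 genes with an adjusted p below 0.05, all to the right of 0, the farthest being Igfbp3 at 0.70.

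Among the 6 FGF ligand genes 1 rose, Fgf1, the acidic FGF, which can bind all FGF receptors. On the normoxia arrays 1 to 5 Fgf1 measured 10.70, 10.50, 10.27, 10.50 and 10.66 (log2 level, probe set 1423136_at), and on the hypoxia arrays 10.83, 11.09, 11.03, 10.78 and 10.80. The groups did not overlap. Fgf1 rose by 0.38 on the log2 scale (SE 0.09, adjusted p = 0.0225), a 1.30-fold increase. Its other probe set rose by 0.41 (SE 0.08, adjusted p = 0.00929), also without overlap. For the first probe set, leaving out normoxia array 2, 3 or 4, or hypoxia array 2 or 3, ended the call (adjusted p up to 0.0589). After quantile normalization it passed with a change of 0.23 (adjusted p = 0.0374).

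The other 5 FGF ligand genes had log2 fold changes from -0.05 to 0.11, and none passed. Fgf10, the mesenchymal ligand that drives lung branching, averaged 5.77 ± 0.14 with normoxia and 5.72 ± 0.17 after intermittent hypoxia (mean ± SD, 5 arrays each). Fgf7, which shares the epithelial receptor of Fgf10, was 7.55 ± 0.11 and 7.59 ± 0.13. Neither group difference exceeded the spread between animals. Fgf9 and Fgf18, ligands of lung development, differed by 0.11 (SE 0.09) and 0.09 (SE 0.08). Fgf2, the basic FGF, ran from 4.51 to 4.80 over all 10 arrays, near the lowest value of the table (3.99), and differed by 0.06 (SE 0.07).

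Among the 4 FGF receptor genes only Fgfr2, the receptor for Fgf7 and Fgf10 on epithelium, passed. Fgfr2 measured 10.95, 10.85, 10.93, 11.01 and 10.97 on normoxia arrays 1 to 5 (probe set 1433489_s_at) and 11.23, 11.16, 11.31, 11.16 and 11.07 on hypoxia arrays 1 to 5. The groups did not overlap, but the step was small: 0.24 on the log2 scale (SE 0.06, adjusted p = 0.0271), or 1.18-fold. The gene's other probe set differed by 0.36 (SE 0.13) and did not pass (adjusted p = 0.0865). After quantile normalization the change of Fgfr2 was 0.09 (adjusted p = 0.417), and leaving out normoxia array 2, 3 or 4, or hypoxia array 1, 2 or 3, also ended the call (up to 0.0682). Fgfr1, Fgfr3 and Fgfr4 differed by 0.04, -0.11 and -0.10, with adjusted p values from 0.271 to 0.727. The other probe set of Fgfr1 differed by 0.31 (SE 0.11, adjusted p = 0.0812). The other probe sets of Fgfr3 (0.28) and Fgfr4 (0.002 to 0.09 in 4 probe sets) had the opposite sign, and none of them passed.

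Hgf, a mesenchymal growth factor for epithelium and endothelium, and Met, its receptor, gave no call. Hgf averaged 7.17 ± 0.10 with normoxia and 7.32 ± 0.16 after intermittent hypoxia (mean ± SD, 5 arrays each; adjusted p = 0.220). Met was 5.94 ± 0.16 and 5.95 ± 0.16, and its difference of 0.01 had a 95% interval from -0.19 to 0.21.

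In the IGF axis 3 of the 6 binding protein genes rose. Igfbp3, the main carrier of IGFs in blood, had the largest change of the 36 genes. On the normoxia arrays 1 to 5 it measured 9.61, 9.31, 9.37, 9.39 and 9.73 (probe set 1423062_at), and on the hypoxia arrays 10.12, 10.13, 10.23, 10.27 and 10.12. The 5 hypoxia arrays sat in a narrow band above all normoxia arrays, of which normoxia arrays 1 and 5 came nearest. Igfbp3 rose by 0.70 (SE 0.08, adjusted p = 0.00163), or 1.62-fold. The call held without each single array in turn, and without normoxia arrays 2 to 4 together the change was 0.51 with an adjusted p of 0.0689 and 2 normoxia arrays left.

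Igfbp7, a secreted protein of low IGF affinity that vessels also make, measured 12.43, 12.08, 11.80, 11.95 and 12.24 on normoxia arrays 1 to 5 (probe set 1423584_at). On hypoxia arrays 1 to 5 it measured 12.64, 12.77, 12.92, 12.63 and 12.39. Only hypoxia array 5 fell within the normoxia range, just below normoxia array 1. The rise was 0.57 (SE 0.12, adjusted p = 0.0140), or 1.49-fold, and the call held without any 1 array. The 2 other probe sets of Igfbp7 differed by -0.01 and -0.02, and the mean of all 3 did not pass (change 0.18, adjusted p = 0.124).

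Igfbp2, a carrier that is also a marker of mature alveolar type 1 cells in mice, measured 10.99, 10.91, 10.55, 10.71 and 10.60 on normoxia arrays 1 to 5 (probe set 1454159_a_at). On hypoxia arrays 1 to 5 it measured 11.56, 11.37, 11.29, 11.16 and 10.92. Hypoxia array 5 lay within the normoxia range and the other 4 above it. The rise was 0.50 (SE 0.12, adjusted p = 0.0202), or 1.42-fold. The call ended when normoxia array 3 or 4 or hypoxia array 1 was left out (adjusted p up to 0.0555) and after quantile normalization (change 0.35, adjusted p = 0.0596).

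The 3 other binding protein genes did not pass. Igfbp6, which prefers IGF2, averaged 11.89 ± 0.23 with normoxia and 12.16 ± 0.23 after intermittent hypoxia (mean ± SD, 5 arrays each; adjusted p = 0.155). Igfbp4, an inhibitor of IGF action, differed by 0.18 (SE 0.10) on its brightest probe set, which did not pass, whereas 2 of its 5 other probe sets rose, by 0.63 (SE 0.15) and 0.51 (SE 0.14). All 6 Igfbp4 probe sets had a positive change, and their mean passed (adjusted p = 0.0338). Igfbp5, which binds to the matrix, gave opposite signs on its 2 probe sets, -0.27 (SE 0.14) and 0.24 (SE 0.12), and neither passed. On the first of these, normoxia arrays 3 and 4 were highest, at 12.80 and 12.68, and without normoxia arrays 2 to 4 its difference was -0.003.

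Neither the IGF ligands nor their receptors passed. Igf1, the main postnatal growth ligand, spread more within intermittent hypoxia than the groups differed: the hypoxia arrays 1 to 5 measured 8.57, 8.97, 8.23, 8.89 and 8.04, and the normoxia arrays ran from 8.19 to 8.63. Its difference was 0.15 (SE 0.16), and its 2 other probe sets differed by -0.09 and 0.27 without passing. Igf2, the fetal ligand, differed by -0.09 (SE 0.08), and by -0.31 (SE 0.12) on its other probe set, without passing. The signalling receptor gene Igf1r and the clearance receptor gene Igf2r differed by -0.05 (SE 0.10) and 0.10 (SE 0.10).

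Among the EGF family ligands, 1 of 3 measured genes passed. Hbegf, a membrane-anchored ligand of EGFR and ERBB4 that proteases release, measured 10.13, 10.10, 9.55, 9.79 and 10.17 on normoxia arrays 1 to 5 (probe set 1418350_at). On hypoxia arrays 1 to 5 it measured 10.50, 10.41, 10.18, 10.24 and 10.38. The groups were narrowly apart, with hypoxia array 3 just above normoxia array 5. Hbegf rose by 0.39 (SE 0.12, adjusted p = 0.0449), or 1.31-fold. Its other probe set rose by 0.32 (SE 0.09, adjusted p = 0.0433), again with no overlap. The call of the first rested on nearly every array: it was lost without any of 8 arrays, all but normoxia arrays 1 and 5 (adjusted p up to 0.115), after quantile normalization (change 0.26, 0.109) and with SAM (0.0524).

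The other 2 measured ligands, Tgfa and Ereg, differed by -0.08 (SE 0.08) and -0.01 (SE 0.07). Ereg averaged 4.55 in both groups, near the lowest value measured (3.99). The receptors of the EGF family showed no call either. Egfr averaged 9.50 ± 0.08 with normoxia and 9.39 ± 0.15 after intermittent hypoxia (mean ± SD, 5 arrays each; adjusted p = 0.345). Of its 4 other probe sets 1 fell, by 0.26 (SE 0.07, adjusted p = 0.0335), and the remaining 3 differed by -0.10 to 0.15 without passing. Erbb2, the co-receptor without a ligand of its own, differed by 0.13 (SE 0.13), and Erbb3, a neuregulin receptor, by 0.01 (SE 0.09). The other probe set of Erbb3 differed by -0.26 (SE 0.10) without passing (adjusted p = 0.0890).

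The feedback and target genes divided into 3 that rose and 3 that did not pass. Dusp6, the phosphatase that switches off ERK, measured 10.71, 10.50, 10.87, 10.38 and 10.97 on normoxia arrays 1 to 5 (probe set 1415834_at) and 11.15, 11.18, 11.13, 11.45 and 11.03 on hypoxia arrays 1 to 5. The groups did not overlap, though normoxia array 5 and hypoxia array 5 nearly met. Dusp6 rose by 0.50 (SE 0.11, adjusted p = 0.0173), or 1.42-fold. The call held without any 1 array but not after quantile normalization (change 0.35, adjusted p = 0.0596).

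Spry1, a Sprouty inhibitor between receptor and MAPK, measured 10.97, 10.83, 10.82, 10.82 and 11.03 on normoxia arrays 1 to 5 (probe set 1415874_at) and 11.27, 11.06, 11.10, 11.12 and 11.09 on hypoxia arrays 1 to 5. The groups were narrowly apart, with hypoxia array 2 just above normoxia array 5. The rise was 0.23 (SE 0.07, adjusted p = 0.0423), or 1.18-fold. It was lost without any of 8 arrays, all but normoxia arrays 1 and 5 (adjusted p up to 0.106), with eBayes trend and robust options (0.0640) and after quantile normalization, where the change was 0.08 (0.386).

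Etv5, an ETS factor downstream of FGF receptors that type 2 cells need, measured 8.06, 7.27, 7.43, 7.62 and 7.72 on normoxia arrays 1 to 5 (probe set 1450082_s_at). On hypoxia arrays 1 to 5 it measured 8.29, 8.18, 8.92, 8.03 and 7.87. Hypoxia array 3 was far above the rest, and normoxia array 1 overlapped with hypoxia arrays 4 and 5. The rise was 0.63 (SE 0.18, adjusted p = 0.0415), or 1.55-fold, and the gene's other probe set differed by 0.18 (SE 0.10) without passing. The call was lost without any of 7 arrays, all but normoxia arrays 1 and 5 and hypoxia array 5 (adjusted p up to 0.101), with SAM (0.0528), with trend and robust options (0.0534) and with the mean of both probe sets (change 0.41, 0.0510).

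The relatives of these genes did not pass. Spry2 averaged 9.90 ± 0.22 with normoxia and 9.77 ± 0.18 after intermittent hypoxia, and Spry4 was 6.28 ± 0.07 and 6.22 ± 0.08 (SD, n = 5 each). Etv4, the other PEA3-type factor measured, was 7.57 ± 0.15 and 7.41 ± 0.11. All 3 differences were negative, from -0.16 to -0.07, with adjusted p values from 0.212 to 0.483.

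Midkine (Mdk) and pleiotrophin (Ptn), a pair of related heparin-binding growth factors, lay on either side of 0. Mdk averaged 7.02 ± 0.07 with normoxia and 7.22 ± 0.08 after intermittent hypoxia (mean ± SD, 5 arrays each), a difference of 0.20 (SE 0.06) that missed the threshold (adjusted p = 0.056). It passed with SAM (0.0349), after quantile normalization (0.0259), with array weights (0.0286), with the gene's mean in a table of 1 row per gene (0.0415) and without normoxia array 5 (0.0474). Ptn differed by -0.12 (SE 0.07, adjusted p = 0.280).

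**Figure D2:**
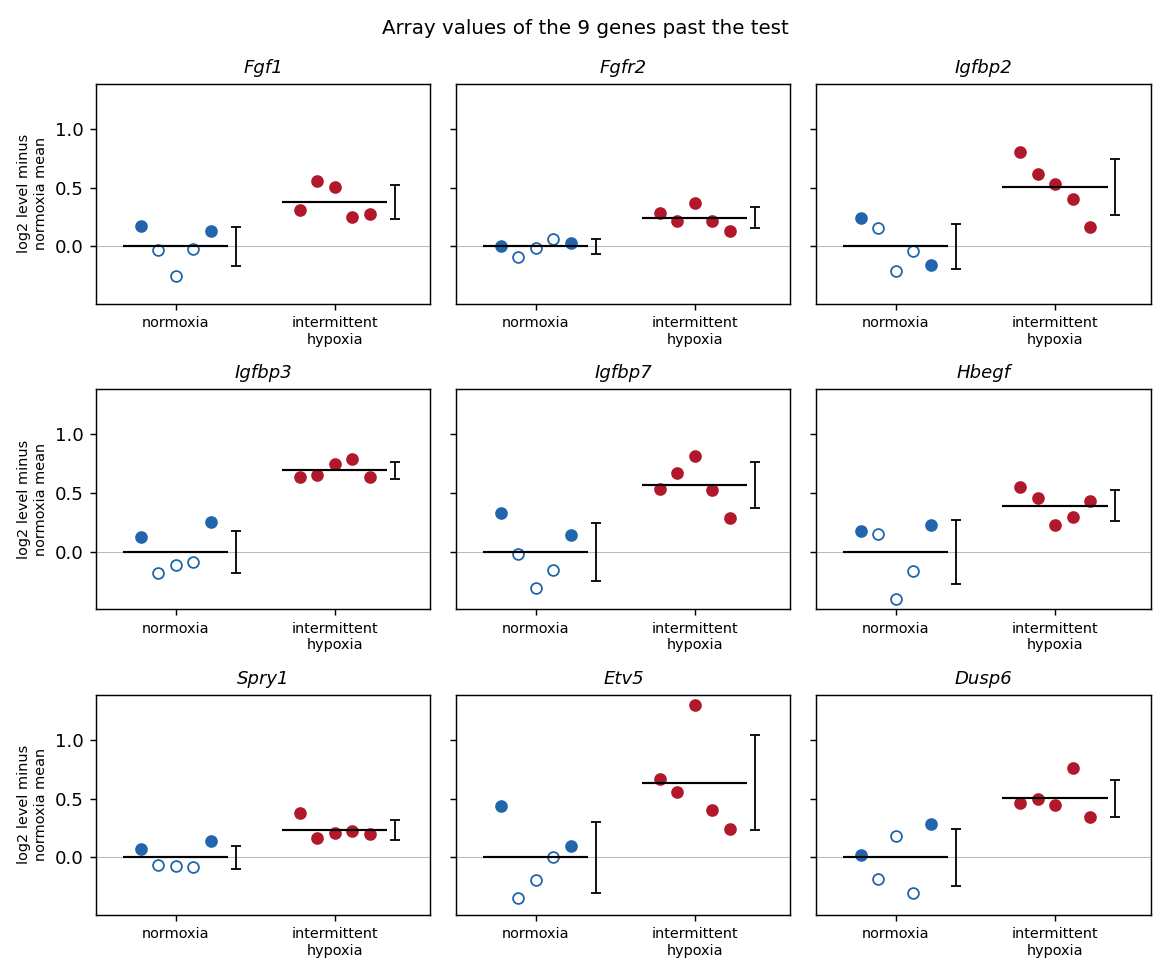
Log2 level on each array minus the gene's normoxia mean, for the 9 genes that rose. Each point is 1 array (1 to 5 from left to right in each group), lines are group means and bars 1 SD (n = 5). Open points are normoxia arrays 2, 3 and 4, which lie below normoxia arrays 1 and 5 for Fgf1, Igfbp3, Igfbp7, Hbegf, Spry1 and Etv5.

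Averaged, the 9 genes were lowest on normoxia arrays 2, 3 and 4. With each gene centred on its mean over 10 arrays, their average was -0.30, -0.38 and -0.32 on these arrays, -0.06 and -0.10 on normoxia arrays 1 and 5, and from 0.07 on hypoxia array 5 to 0.34 on hypoxia array 3. With normoxia arrays 2 to 4 left out together, all 9 changes were still positive, from 0.13 to 0.51. None of the 9 passed then (adjusted p from 0.0689 to 0.678), with 2 normoxia arrays left. At an unadjusted p below 0.05, 7 of the 36 genes were higher and 0 lower, with no count of all genes at that level. In that comparison 16 of all 22626 probe sets passed. The changes of Fgf1, Igfbp7, Hbegf, Spry1 and Etv5 shrank by over 1.5 times, to 0.23, 0.33, 0.19, 0.13 and 0.37, and those of Igfbp2 (0.46), Igfbp3 (0.51), Fgfr2 (0.23) and Dusp6 (0.35) shrank by less.

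**Figure D3:**
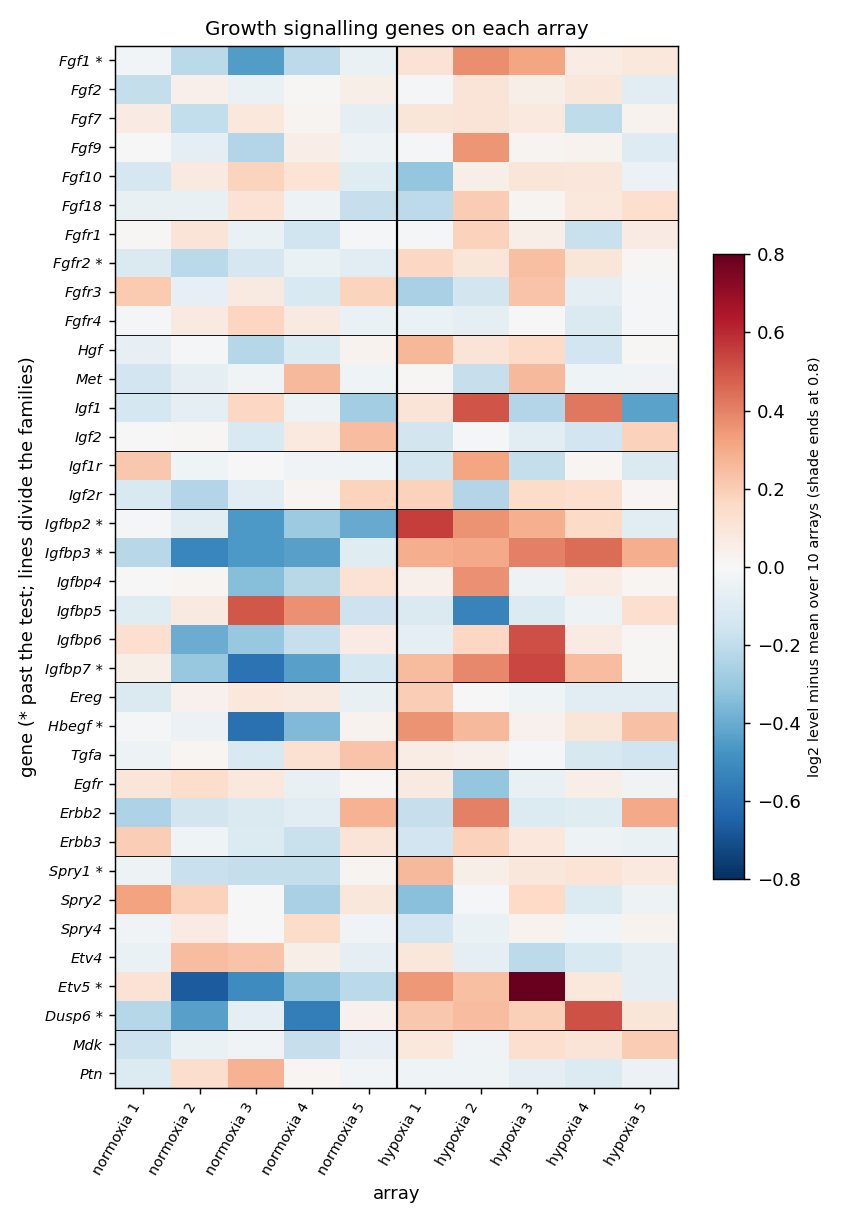
Log2 level of each measured gene on each array minus its mean over all 10 arrays, with genes in rows by family and arrays in columns. Stars mark the 9 genes that rose, whose rows are blue on normoxia arrays 2 to 4 and red on most hypoxia arrays, while most other rows show no step at the line between the groups.

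**Figure D4:**
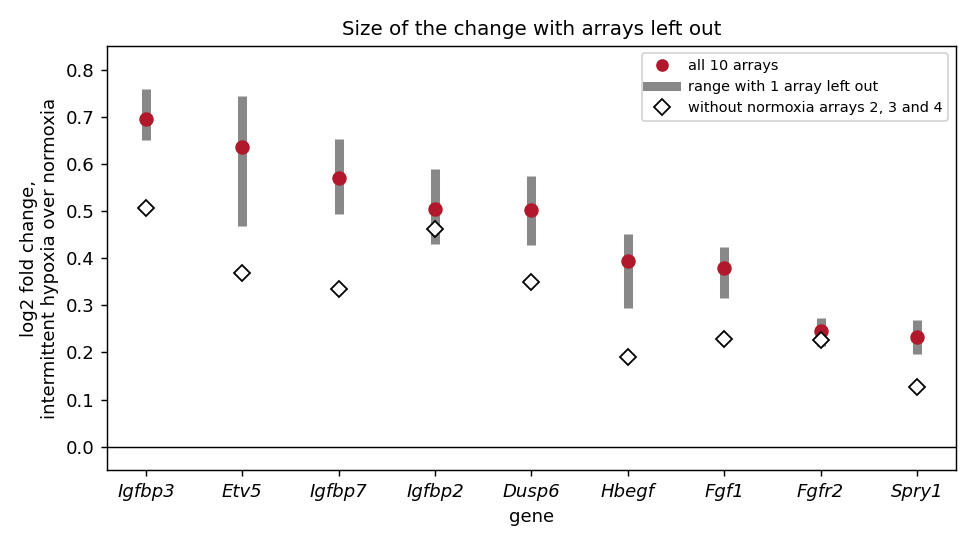
Log2 fold change of the 9 genes with all 10 arrays (red points), its range when any 1 array was left out (grey bars) and its value without normoxia arrays 2, 3 and 4 (open diamonds). All values are above 0, and the diamonds lie between 0.13 and 0.51.

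The upstream windows of the genes that rose together in the IGF binding protein and feedback families are shown because these 2 families hold 6 of the 9 rises. The 250 bases before the annotated start were taken from RefSeq (GRCm38.p6), which had a promoter for 28 of the 36 measured genes and for 7 of the 9 that rose. Where RefSeq gives 2 starts (Igfbp2 and Etv5), the more upstream one is printed. Capitals mark ACGTG, the core of the hypoxia response element bound by hypoxia-inducible factors, and the GC box GGGCGG, on either strand. The windows lie at chr1:72824230-72824479 (plus strand) for Igfbp2, chr11:7213924-7214173 (minus strand) for Igfbp3 and chr5:77408046-77408295 (minus strand) for Igfbp7.
Igfbp2: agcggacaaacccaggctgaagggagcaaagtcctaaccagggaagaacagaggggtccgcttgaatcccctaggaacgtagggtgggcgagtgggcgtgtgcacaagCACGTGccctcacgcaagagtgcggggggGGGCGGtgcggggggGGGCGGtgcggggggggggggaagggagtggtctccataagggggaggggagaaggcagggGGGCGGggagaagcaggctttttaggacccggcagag
Igfbp3: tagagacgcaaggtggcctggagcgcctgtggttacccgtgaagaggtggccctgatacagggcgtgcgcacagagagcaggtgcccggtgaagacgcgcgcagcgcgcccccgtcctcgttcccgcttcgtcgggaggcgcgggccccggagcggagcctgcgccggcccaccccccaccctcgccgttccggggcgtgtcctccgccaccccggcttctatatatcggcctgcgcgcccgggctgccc
Igfbp7: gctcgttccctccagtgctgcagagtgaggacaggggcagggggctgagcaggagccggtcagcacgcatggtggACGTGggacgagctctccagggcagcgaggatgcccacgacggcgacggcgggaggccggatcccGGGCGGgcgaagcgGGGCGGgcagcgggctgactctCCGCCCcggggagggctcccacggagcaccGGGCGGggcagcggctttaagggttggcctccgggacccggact

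The windows of the feedback and target genes lie at chr3:37639697-37639946 (plus strand) for Spry1, chr16:22439571-22439820 (minus strand) for Etv5 and chr10:99262981-99263230 (plus strand) for Dusp6.
Spry1: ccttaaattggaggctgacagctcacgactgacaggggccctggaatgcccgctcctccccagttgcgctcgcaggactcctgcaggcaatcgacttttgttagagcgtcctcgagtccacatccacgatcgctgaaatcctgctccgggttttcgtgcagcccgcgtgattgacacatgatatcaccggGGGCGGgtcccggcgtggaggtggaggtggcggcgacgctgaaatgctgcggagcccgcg
Etv5: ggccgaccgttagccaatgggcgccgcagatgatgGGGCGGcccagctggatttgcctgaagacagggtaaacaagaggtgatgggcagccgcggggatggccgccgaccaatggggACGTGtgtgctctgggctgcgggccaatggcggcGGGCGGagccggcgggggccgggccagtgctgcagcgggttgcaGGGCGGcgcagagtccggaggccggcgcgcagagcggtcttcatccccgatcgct
Dusp6: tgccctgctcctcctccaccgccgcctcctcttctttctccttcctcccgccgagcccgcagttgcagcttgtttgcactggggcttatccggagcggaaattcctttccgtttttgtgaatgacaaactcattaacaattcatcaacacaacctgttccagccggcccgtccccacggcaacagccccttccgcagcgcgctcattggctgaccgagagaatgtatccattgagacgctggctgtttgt

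The ACGTG core was present upstream of Igfbp2, where it reads CACGTG and so matches on both strands, and of Igfbp7 and Etv5. That made 3 of the 7 genes that rose and have a window, 5 of the 21 others, and 16.6% of all 32851 windows of the same length. The calls of Igfbp3, Igfbp7 and Dusp6 held without any 1 array. Of their windows, that of Igfbp7 held both marked motifs and those of Igfbp3 and Dusp6 held neither. The GC box stood in the windows of 4 of the 7 genes and 11 of the 21 others, against 32.7% of all windows. The ETS motif CCGGAAG was in 0 of the 7 and 1 of the 21 (6.91% of windows), the AP-1 motif TGANTCA in 1 and 2 (6.75%), and the cAMP response element TGACGTCA in none of either (1.55%). A gene was counted if any of its windows matched, and some genes have several, whereas the percentages are shares of single windows. The counts and percentages are therefore not in the same unit. The AP-1 match among the genes that rose, in Igfbp2, is not in the printed window. These motifs were searched on both strands, and a match describes letters in the window only.

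Of 113 other genes of the same pathways, in 5 lists, 92 were measured, of which 11 rose and 1 fell. This share of 12.0% higher stands beside 8.93% of all genes, and the median log2 fold change was 0.02. Of the 11 rises 6 were in genes of ligand release and co-receptors. Of 19 genes of ligand processing and release 4 rose. Adam9, a protease that can shed heparin-binding EGF-like growth factor, rose by 0.50 (SE 0.11, adjusted p = 0.0135), and Rhbdf1, an inactive rhomboid that supports the sheddase ADAM17, by 0.33 (SE 0.09, adjusted p = 0.0284). Spint1, an inhibitor of the protease that activates HGF, rose by 0.33 (SE 0.08, adjusted p = 0.0205), and Htra1, a secreted serine protease, by 0.42 (SE 0.12, adjusted p = 0.0360). Of 18 other receptors and co-receptors Sdc1, a heparan sulfate proteoglycan, rose by 0.50 (SE 0.10, adjusted p = 0.0130) and Cd44, a hyaluronan receptor, by 0.45 (SE 0.11, adjusted p = 0.0240).

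Inside the cell, 4 of 25 relay genes rose and 1 fell. The kinase genes Map2k1 (MEK1) and Rps6ka3 (RSK2) rose by 0.34 (SE 0.09) and 0.36 (SE 0.09), and the docking protein gene Gab1 by 0.42 (SE 0.11). Its relative Gab2 dropped by 0.44 (SE 0.12, adjusted p = 0.0310). Grb14, an adaptor of the insulin receptor, rose by 0.29 (SE 0.09, adjusted p = 0.0439) and is named after its value was seen. Of 15 other ligand genes 1 rose, Fgf13, an intracellular FGF homologue that binds sodium channels, by 0.25 (SE 0.07, adjusted p = 0.0321). With the settings used throughout, none of 15 other feedback inhibitors passed in limma, and at an unadjusted p below 0.05 there were 1 higher and 2 lower. The smallest p was that of Lrig1, an inhibitor of EGF receptors, at -0.34 (SE 0.10, adjusted p = 0.0527). Lrig1 passed as lower after quantile normalization (0.0484), with the filter on low levels (0.0361), with trend and robust options (0.0455), with array weights (0.0235), and without normoxia array 5 (0.0113) or hypoxia array 5 (0.0417). Of these 12 calls those of Adam9 and Sdc1 held without any 1 array. The other 10 were lost without at least 1 array (adjusted p up to 0.114): normoxia arrays 2 to 4 or hypoxia arrays 1 to 4 for 9 of them, and any array but normoxia array 5 for Grb14, and none of the 12 passed without normoxia arrays 2 to 4 together (adjusted p from 0.331 to 0.717), with 2 normoxia arrays left. In that comparison Fgf13 (0.25), Adam9 (0.36), Rhbdf1 (0.26) and Spint1 (0.24) changed in size by less than 1.5 times. The other 8 became over 1.5 times smaller: Sdc1 (0.28), Cd44 (0.26), Htra1 (0.24), Gab1 (0.23), Rps6ka3 (0.20), Map2k1 (0.16), Grb14 (0.13) and Gab2 (-0.15).

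The processing also ended some of these calls. After quantile normalization Rhbdf1 (0.21, adjusted p = 0.0706), Htra1 (0.31, 0.0554), Rps6ka3 (0.22, 0.0598), Gab1 (0.28, 0.0542) and Grb14 (0.17, 0.112) did not pass, while Cd44 (0.30), Spint1 (0.22) and Map2k1 (0.22) passed with changes over 1.5 times smaller. With the mean of each gene's probe sets Rps6ka3 (0.140), Gab1 (0.0595) and Fgf13 (0.162) did not pass. With the replicate number added to the limma fit as a block, Gab2 (0.0532), Map2k1 (0.0628), Rhbdf1 (0.0516), Fgf13 (0.0551) and Grb14 (0.0654) did not pass.

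**Figure D5:**
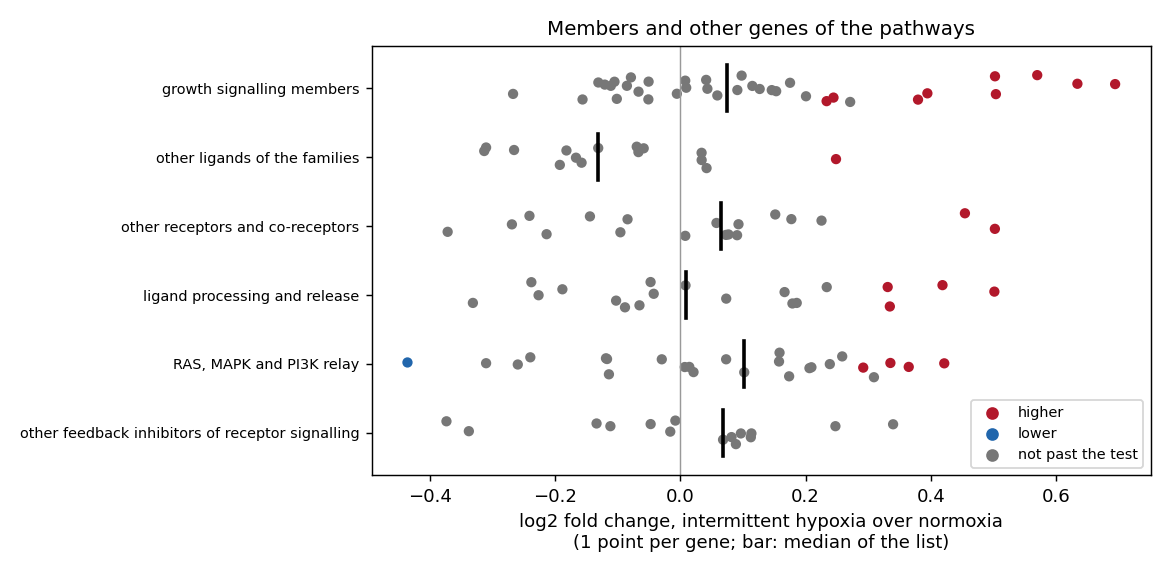
Log2 fold change, intermittent hypoxia over normoxia, of the 36 measured growth signalling genes and of the measured genes of 5 other pathway lists, 1 point per gene. Red points rose, the blue point (Gab2) fell and black bars are list medians, which lie between -0.13 and 0.10.

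Markers of lung cell types moved beside these genes, and their part in the results was not tested. Of 10 fibroblast markers 6 rose: Mfap5 and the collagen genes Col1a1 (by 0.80, SE 0.12), Col1a2, Col3a1, Col13a1 and Col14a1. Pdgfra (-0.14), Tcf21 (-0.06), Dcn (0.22) and Lum (0.15) did not pass. The mean log2 level of the list was 10.18 to 10.53 on the normoxia arrays and 10.61 to 10.90 on the hypoxia arrays. Beside Igfbp2, 2 of 7 type 1 cell markers rose, Aqp5 by 0.53 (SE 0.10) and Emp2 by 0.53 (SE 0.13), with list means of 11.54 to 11.97 and 11.93 to 12.10. Rtkn2 (0.27), Ager (0.18), Cldn18 (0.16), Hopx (0.01) and Pdpn (-0.13) did not pass. Beside Fgfr2 and Etv5, 0 of 9 type 2 cell markers passed in limma (3 higher and 0 lower at an unadjusted p below 0.05), and the list means were 12.20 to 12.49 and 12.32 to 12.54. The changes of 8 of the 9 were positive. Lpcat1 differed by 0.24 with no overlap of the groups, but did not pass (adjusted p = 0.0604). Of 8 endothelial markers Emcn alone rose (list means 10.62 to 11.11 and 10.90 to 11.23), and the others differed by -0.35 (Vwf) to 0.42 (Pecam1) without passing. B cell markers rose in 4 of 5 cases, with means of 7.62 to 8.57 and 8.53 to 9.30. T cell markers rose in 3 of 6 cases (Cd3d, Cd3g and Cd8b1, by 0.29 to 0.51), with means of 6.98 to 7.17 and 7.09 to 7.46. The others, Cd4 (-0.22), Cd3e (-0.09) and Cd8a (0.06), did not pass. Of 5 macrophage markers Cd68 rose by 0.74 and Mrc1 by 0.41 (means 8.38 to 8.50 and 8.48 to 8.80). Csf1r (0.25) and Marco (0.04) did not pass. Siglec1 differed by -0.16 with no overlap of the groups, but did not pass (adjusted p = 0.0921). Of 4 mesothelial markers Upk3b rose by 0.55 (means 8.39 to 8.84 and 8.73 to 8.95). Of 6 neutrophil markers Ltf fell by 1.19 (means 8.62 to 9.88 and 8.60 to 9.15), and 2 of 6 adipose markers fell (means 8.37 to 9.26 and 7.61 to 8.54). No airway, smooth muscle or heart muscle marker passed in limma, and at an unadjusted p below 0.05 these lists together had 1 higher and 0 lower.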

How the data were processed

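Total RNA of 10 whole lungs was hybridised to Affymetrix Mouse Genome 430A 2.0 arrays, 1 per animal, per the labels. The deposited values are log2 probe set levels, and per the submitters' processing notes they were made with RMA and affy (no versions given). Their log2 scale was checked on the values. The standard deviation of the arrays differed more than quantile normalization over all 10 together would leave, so how the arrays were normalized together is uncertain. Of the probe sets that passed, 71.2% were higher, and 59.1% once quantile normalization was added. No detection calls were used; precision is limited by the number of arrays.

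Groups were taken from the sample titles. All 22626 probe sets were fitted with limma 3.58.1 (lmFit, eBayes) in R 4.3.3, intermittent hypoxia against normoxia, two-sided, with Benjamini-Hochberg adjustment and a threshold of 0.05. At this threshold 2699 probe sets passed (11.9%). Symbols came from the array's annotation, and 20380 probe sets had 1 symbol, 691 several and 1555 none. Probe sets ending in _s_at or _x_at can match more than 1 transcript. The members and lists were chosen with earlier results of these data known. All measured members are given, and up to 4 passing genes of each other list, with Grb14 named in addition. SAM used 100 permutations, with q as the mean number of permuted calls, times the estimated share of unchanged probe sets, over the calls. Other alternatives were quantile normalization, median centring, a filter on low levels, eBayes trend and robust options, array weights, averaging probe sets by gene, a replicate block and arrays left out. The fits were tested on simulated data.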

Additional observations from a re-analysis of the deposited data

Results flagged for a closer look

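In 5 of 72 groups of 5 arrays (36 genes in 2 groups) 1 array stood far from the other 4 by Dixon's criterion, which chance alone meets in about 1 of 20 groups. Fgf7 was 7.36 on hypoxia array 4, against 7.59 to 7.67 on the other hypoxia arrays. Hypoxia array 2 had high values of Fgf9 (7.25, others 6.79 to 6.92) and of Igfbp4 (12.78, others 12.38 to 12.48). Igf1r was 8.58 on normoxia array 1, with the others at 8.33 to 8.36. Of the genes that rose, only Spry1 had such a value, 11.27 on hypoxia array 1, with the others at 11.06 to 11.12. Without that array the change of Spry1 was 0.20 and its limma adjusted p was 0.0959.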

How the results depend on the processing

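The count of 9 growth signalling genes that rose, with 0 that fell under any alternative, was 8 with SAM, 9 with median centring and with the filter on low levels (24 of the 36 genes tested), 7 with trend and robust options and 10 with array weights. With the filter on low levels 2430 of 11313 probe sets passed, 79.75% of them higher. Averaging probe sets by gene also gave 9, of which 7 were among the original 9. Quantile normalization gave 5, of which 4 were among the 9 (Fgf1, Igfbp3, Igfbp7 and Etv5), and leaving out 1 array gave 3 to 10. None passed without normoxia arrays 2 to 4 together, which leaves 2 normoxia arrays. All 9 genes kept a positive change under every alternative run. Over all probe sets the count of 2699 became 4132 with array weights, 1003 to 4800 with 1 array left out and 16 without normoxia arrays 2 to 4. It was 1341, 1123 and 1003 without normoxia arrays 2, 3 and 4, 4800 without normoxia array 5, and 1265, 1383, 1371 and 1714 without hypoxia arrays 1 to 4. It also depended on how q is defined in SAM, a choice varied after the data were seen: 2886 as used here, 938 without the estimated share of unchanged probe sets (2 of the 36 genes, Fgfr2 and Igfbp3), and 6912 or 4066 with the median of the permuted calls, with or without that share (10 of the 36 genes each).

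Between arrays of the same replicate number, the deviations from the group means had correlations of -0.24 to 0.22. Arrays of different numbers were not compared, so these values cannot show whether the arrays are paired. With the replicate block 1755 probe sets and 5 of the 36 genes passed (Igfbp2, Igfbp3, Igfbp7, Hbegf and Dusp6). The cause of these shifts was not tested. The 5 animals per group limit what can be called.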
